A study of Mus musculus with 4 samples.

Results

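The genes described here encode the enzymes and carriers that burn fatty acids in the liver, together with a ketone body enzyme and regulators of the pathway. They were taken by name from the platform annotation of the arrays. Of 36 genes named, 35 had at least 1 probe set assigned to a single gene symbol, 62 probe sets in all, out of 18193 genes with such a probe set. Cyp4a10, a fatty acid hydroxylase, had no probe set assigned to it alone and was left out. Liver RNA came from athymic nude mice of the strain BALB/c nu/nu in which carbon tetrachloride, a hepatotoxin, had been injected 23 times at 0.25 ml/kg. All of the mice then received 1000000 human bone marrow mesenchymal stem cells into the spleen, which carried EGFP, a fluorescent control protein, in the control group (2 arrays) or OGFRL1 in the other group (2 arrays). Part of the liver was removed on day 21, and regenerating liver was collected on day 8 after that operation. The labels used here give neither the vector of the transgenes nor the sex or age of the mice, and leave unsaid if each array was a different animal. The p-values therefore measure only how far these 4 arrays varied, which may be partly technical variation.

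Fatty acids enter hepatocytes, are activated to acyl-CoA and cross into mitochondria as carnitine esters. There each turn of beta-oxidation shortens the chain and releases acetyl-CoA and electrons. When supply is high, acetyl-CoA is turned into ketone bodies in separate steps. Very long and branched chains are first shortened in peroxisomes, and a further route, omega-hydroxylation by P450 enzymes of the CYP4 family, runs in the endoplasmic reticulum. Acyl-CoA thioesterases release free fatty acids from their CoA esters. Many of these genes are known targets of the nuclear receptor PPAR-alpha, which is active in the fasted liver.

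The 4 arrays had median signals from 11.6 to 12.5, and every array was scaled to the same trimmed mean. Signals are in arbitrary units of the MAS5 software, and differences are OGFRL1 minus EGFP on a log2 scale after adding a pseudocount of 3.51, with the standard error (SE) of a limma fit over 11942 genes. The hepatocyte markers Alb, Plg, F2 and Hnf4a had signals from 2191 to 16107, and the adipocyte markers Adipoq and Lep lay between 0.505 and 2.64, under the minimum of 11.6 set for testing. In bulk tissue, fewer cells of a type and less RNA per cell cannot be told apart.

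None of the 35 members passed the limma threshold of 0.05 after adjustment over all genes tested, where 0.511% of genes did. The lowest adjusted p was 0.0641, for Acot3. At an unadjusted p under 0.05 there were 15 members, 11 lower in OGFRL1 livers and 4 higher, against 6.28% and 9.01% of all genes. Both OGFRL1 arrays lay below both EGFP arrays in 18 members, against 20.5% of all genes, and above both in 5, against 27% of all genes. The median log2 difference over the members was -0.23, with 27 of 35 below 0, while the median over all genes was 0.04. The count of 0 depended on single arrays. Without EGFP 1 there were 5 members past the threshold (Decr1, Acaa1b, Acot2, Acot3 and Ppara), and without EGFP 2 there were 4 (Acads, Acaa1a, Acaa1b and Acot3), in fits where the lone EGFP array is assumed to vary like the others. Without either OGFRL1 array there were 0.

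The steps of the pathway did not share 1 direction. Peroxisomal enzymes had the lowest median difference, -0.53 over 6 genes, followed by the mitochondrial spiral with -0.33 over 10 genes, the carnitine shuttle with -0.27 over 4 and electron transfer with -0.24 over 3. The thioesterases, by contrast, had a median of 0.75 over 4 genes. Regulators and PPAR-alpha targets outside these steps had a median of 0.02 over 6 genes. The microsomal and ketogenic steps rested on 1 gene each. These medians are descriptions without a test. Scaling the arrays to the 4 probe sets of the Cre control, a labelled transcript that is normally added to the hybridisation mix and whose mean log2 difference was -0.43, adds 0.43 to every difference. The medians then became 0.16 for the shuttle, 0.094 for the mitochondrial spiral and 0.18 for electron transfer, so those directions turned, while the peroxisomal median stayed below 0 (-0.10) and that of the thioesterases was 1.17. Relative to the median of all genes, which moved by the same 0.43, Cre scaling left the order of the steps as it was. Under quantile normalization the order changed: the medians were -0.41 for peroxisomal enzymes, -0.21 for the shuttle, -0.15 for electron transfer and -0.092 for the mitochondrial spiral.

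**Figure D1:**
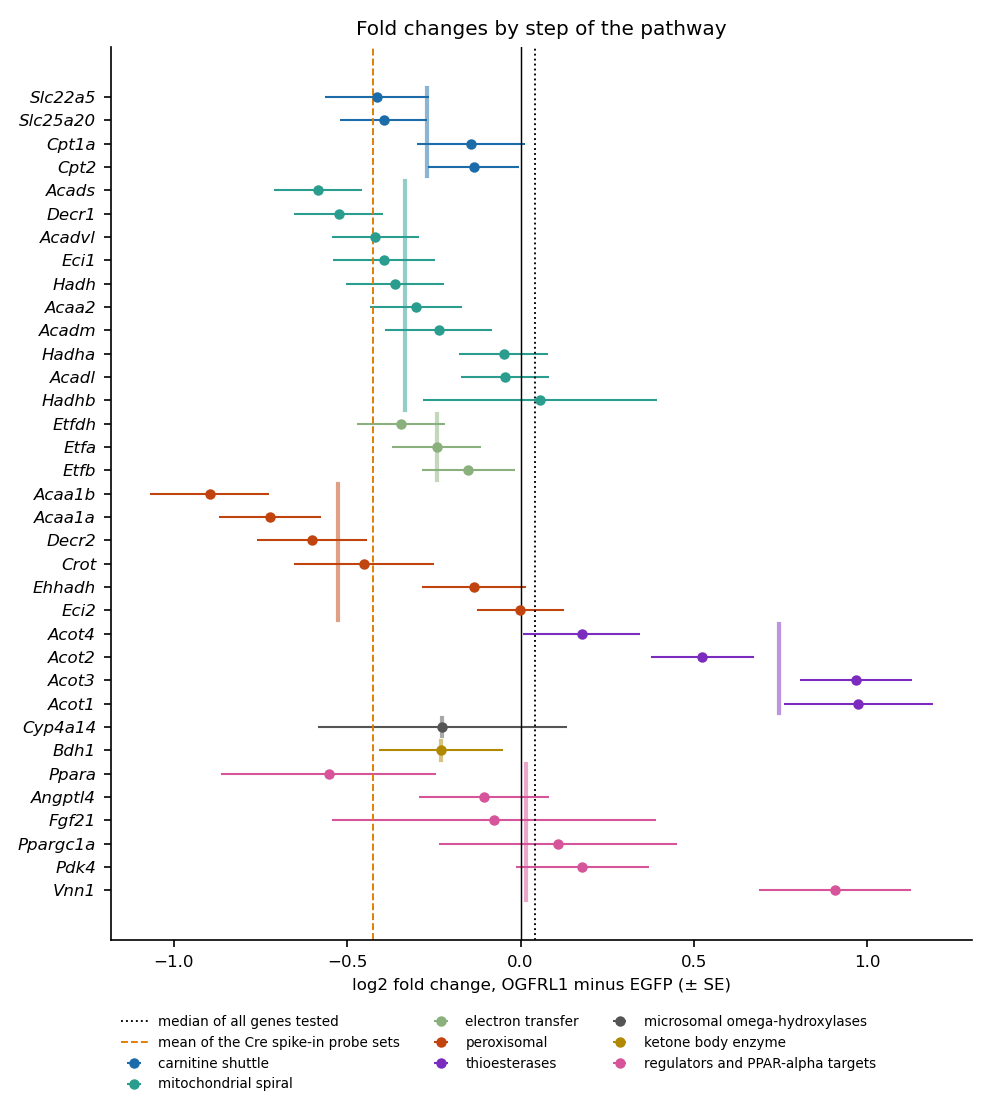
Log2 difference between OGFRL1 and EGFP livers (horizontal axis) for each of the 35 tested members (rows), coloured by step. Points are limma estimates, horizontal bars are ± 1 SE, and short vertical bars are step medians. Acot1, Acot2, Acot3 and Vnn1 lie farthest right, and Acaa1b and Acaa1a farthest left. The dotted line is the median of all genes (0.04) and the dashed line the mean of the Cre spike-in probe sets (-0.43).

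The carnitine shuttle moves long acyl chains across the mitochondrial membranes. Slc22a5, the carnitine importer of the plasma membrane, had signals of 216 and 244 in EGFP livers and 176 and 168 in OGFRL1 livers, a log2 difference of -0.41 ± 0.15 (adjusted p = 0.264). Slc25a20, the carnitine/acylcarnitine exchanger of the inner membrane, had 1865 and 1800 against 1404 and 1383 (-0.39 ± 0.13, adjusted p = 0.214). In the brightest probe sets of both transporters the groups did not overlap. The second probe set of Slc25a20 gave nearly the same difference, -0.42. The second probe set of Slc22a5, which was dimmer, had overlapping groups (-0.08 ± 0.30). Cpt1a, the malonyl-CoA-regulated entry enzyme of the outer membrane, had 1322 and 1642 against 1273 and 1396, with overlapping groups (-0.14 ± 0.16). Its other 2 probe sets, both of a type that can bind related transcripts, pointed the other way (0.52 ± 0.55 and 0.59 ± 0.44), with EGFP 1 far below the other 3 arrays. The brightest probe sets of Acaa1a, Acaa2, Acot3, Angptl4, Hadh and Hadhb are also of such types. Cpt2, which returns the acyl group to CoA inside mitochondria, had 864 and 865 against 831 and 746 (-0.14 ± 0.13). In the brightest probe sets, the differences of the 2 carriers were over 2 SE, and those of the acyltransferases about 1 SE.

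Among the enzymes of the mitochondrial spiral, 7 of 10 had both OGFRL1 arrays below both EGFP arrays, against 20.5% of all genes. Acads, the short-chain acyl-CoA dehydrogenase, stood lowest, with 928 and 875 in EGFP livers and 601 and 598 in OGFRL1 livers (-0.58 ± 0.13, adjusted p = 0.107). Decr1, the dienoyl-CoA reductase that lets unsaturated chains through the spiral, had 1471 and 1593 against 1060 and 1067 (-0.52 ± 0.13, adjusted p = 0.133). Acadvl, the very-long-chain dehydrogenase, had 2189 and 2139 against 1604 and 1631 (-0.42 ± 0.13, adjusted p = 0.196). In these 3 genes the OGFRL1 arrays were nearly equal and lay well below both EGFP arrays. Eci1, the enoyl-CoA isomerase, had -0.39 ± 0.15, Hadh, the hydroxyacyl-CoA dehydrogenase of shorter chains, -0.36 ± 0.14, the thiolase Acaa2 -0.30 ± 0.13 and the medium-chain dehydrogenase Acadm -0.24 ± 0.15. The 3 probe sets of Acaa2 gave -0.30 to -0.32. Under quantile normalization Hadh had -0.06, Acaa2 -0.10 and Acadm -0.08. Acads then had -0.57, Decr1 -0.46, and Acadvl and Eci1 both -0.32.

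The remaining 3 mitochondrial enzymes had overlapping groups. Acadl, the long-chain dehydrogenase, had 1792 and 1881 against 1811 and 1751 (-0.04 ± 0.13), and Hadha, the alpha subunit of the trifunctional protein, 679 and 732 against 682 and 682 (-0.05 ± 0.13). Hadhb, the beta subunit, whose gene starts beside that of Hadha on the opposite strand, had widely spread signals of 1473 and 2977 against 2597 and 1826 (0.06 ± 0.34). A second probe set of Hadhb was steadier, with 2041 and 1890 against 1668 and 1574 (-0.28 ± 0.14). The Hadhb value is thus set by the choice of probe set. It was -0.45 without EGFP 1 and 0.56 without EGFP 2.

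The electron transfer flavoprotein carries electrons from the acyl-CoA dehydrogenases to the respiratory chain. In all 3 parts both OGFRL1 arrays lay below both EGFP arrays, against 20.5% of all genes. Etfdh, the quinone oxidoreductase of the flavoprotein, had 1459 and 1555 against 1190 and 1180 (-0.34 ± 0.13, adjusted p = 0.271). Etfa had -0.24 ± 0.13, and Etfb, the other subunit, had 2498 and 2232 against 2154 and 2099 (-0.15 ± 0.13). Bdh1, the mitochondrial enzyme that interconverts the 2 main ketone bodies, had 1660 and 2277 against 1712 and 1606, with overlapping groups (-0.23 ± 0.18, adjusted p = 0.61). Its second probe set did not overlap, with 488 and 599 against 440 and 340.03 (-0.48 ± 0.19). The brighter probe set had -0.46 without EGFP 1 and -0.002 without EGFP 2, so EGFP 2 carried its difference.

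**Figure D2:**
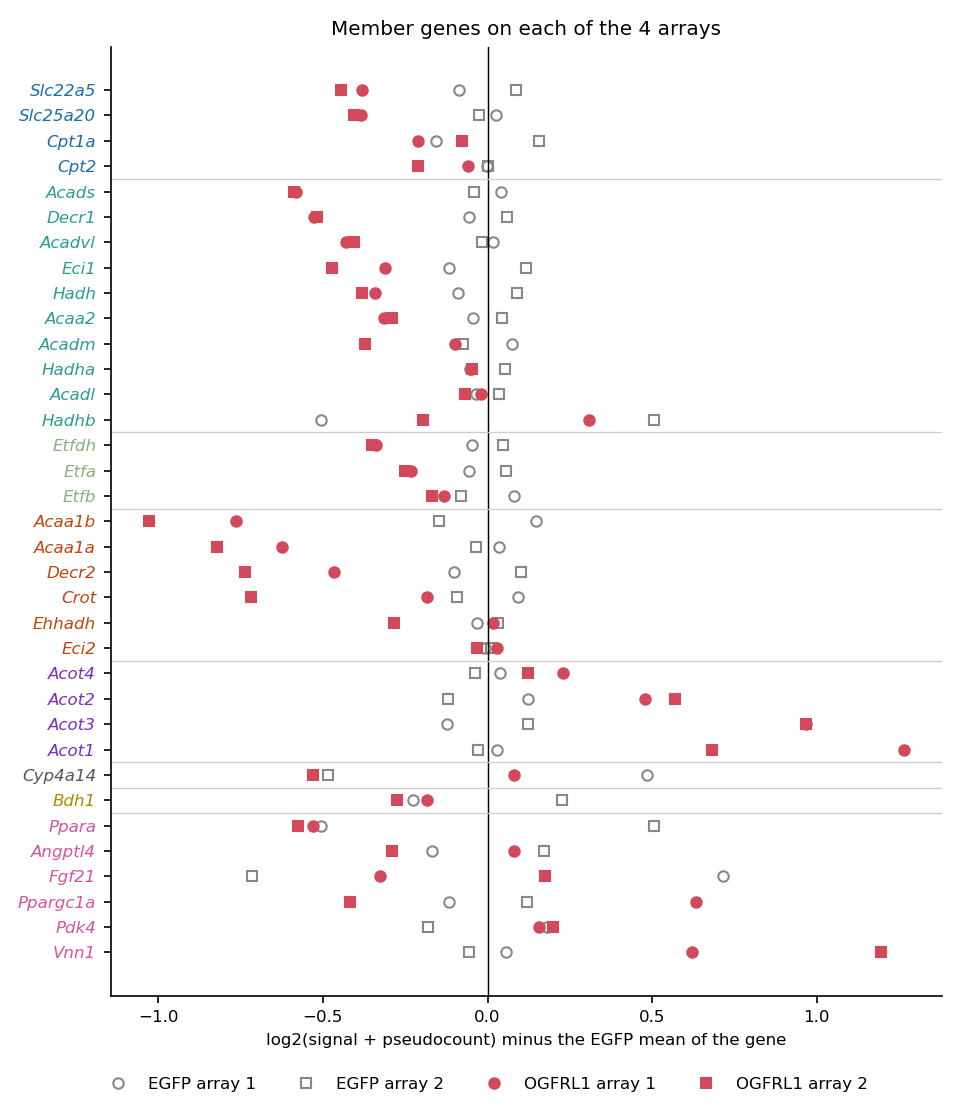
Each tested member (rows, grouped by step, with name colours and grey lines separating the steps) on each array: log2(signal + pseudocount) minus the gene's EGFP mean (horizontal axis). Open grey symbols are EGFP arrays and filled red symbols OGFRL1 arrays, with circles for array 1 and squares for array 2. In 18 genes both red symbols lie left of both grey ones, in 5 they lie right of them, and in 12 the groups overlap.

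Peroxisomal enzymes shorten very long chains and feed the products to mitochondria. Acaa1b, a peroxisomal thiolase, had the lowest log2 difference among the members, with 9806 and 8006 in EGFP livers and 5216 and 4337 in OGFRL1 livers (-0.90 ± 0.17, adjusted p = 0.0849). Its close paralog Acaa1a had 367 and 349 against 231 and 201 (-0.72 ± 0.15, adjusted p = 0.0963). Under quantile normalization Acaa1b had -0.55 and Acaa1a -0.77, so that Acaa1a was then the lowest member. The coding sequences of this pair are so alike that transcripts of either may bind both probe sets, and probe sets that the annotation gives to both were left out. Decr2, the peroxisomal dienoyl-CoA reductase, had 574 and 661 against 445 and 368 (-0.60 ± 0.16, adjusted p = 0.155). Crot, which turns the shortened acyl-CoA into carnitine esters for export, had 3880 and 3409 against 3201 and 2210 (-0.45 ± 0.20). In these 4 of 6 peroxisomal genes both OGFRL1 arrays lay below both EGFP arrays, against 20.5% of all genes.

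In contrast, Ehhadh, the bifunctional enzyme of the same spiral, had 1518 and 1588 against 1569 and 1274 (-0.13 ± 0.15). Eci2, an enoyl-CoA isomerase of peroxisomes, had 1874 and 1897 against 1925 and 1846, a difference of -0.0005 ± 0.13. The peroxisomal median was -0.73 without OGFRL1 1 and -0.32 without OGFRL1 2, since Crot, Decr2 and both thiolases were lower on OGFRL1 2 than on OGFRL1 1.

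Acyl-CoA thioesterases stood on the other side. Acot1 to Acot4 encode related enzymes of the cytosol (Acot1), mitochondria (Acot2) and peroxisomes (Acot3 and Acot4). In their brightest probe sets all 4 had both OGFRL1 arrays above both EGFP arrays, against 27% of all genes. Acot3 had 102 and 122 in EGFP livers and 221 and 222 in OGFRL1 livers (0.97 ± 0.16, adjusted p = 0.0641), the smallest adjusted p among the members. Acot1 had 143 and 137 against 342 and 227 (0.97 ± 0.22, adjusted p = 0.111). Acot2 had 331 and 279 against 425 and 452 (0.52 ± 0.15, adjusted p = 0.179), and its second probe set, with 40.1 and 34.1 against 70.8 and 69.5, a difference of 0.86 ± 0.20. Acot4 had 88.4 and 83.6 against 101 and 94.0 (0.18 ± 0.17), a gap of about 1 SE, and its second probe set overlapped (-0.06 ± 0.21). The difference was over 3 SE in Acot1, Acot2 and Acot3 and about 1 SE in Acot4. These genes are close paralogs, and the Acot3 probe set is of a type that can bind several related transcripts; how far they share signal was not tested. After scaling to the Cre controls, Acot1 (1.40), Acot2 (0.95) and Acot3 (1.39) passed the threshold, in a setting where 1303 of 11942 genes did.

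**Figure D3:**
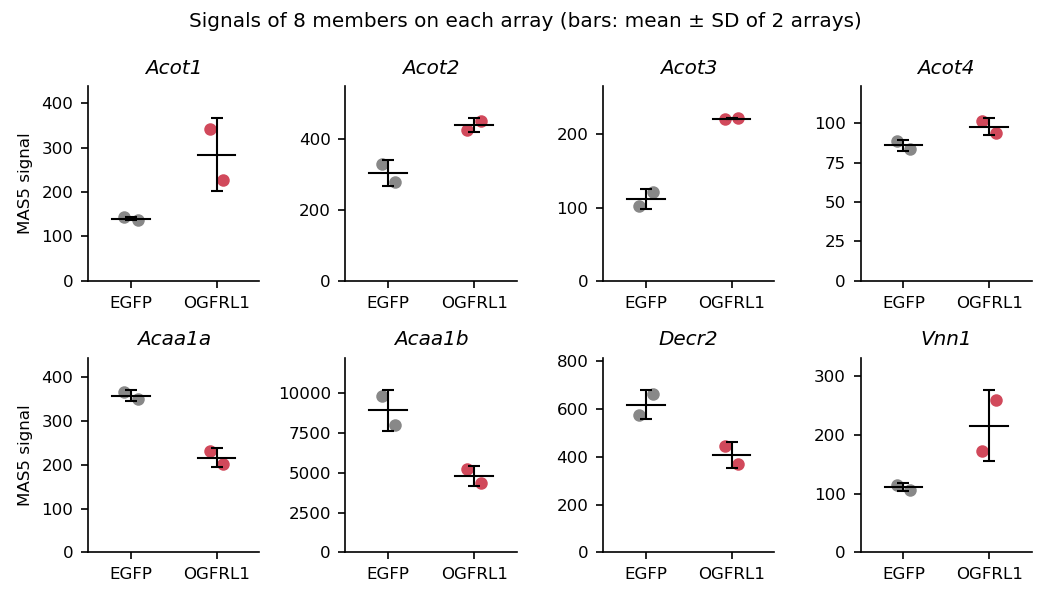
MAS5 signal (vertical axes, from 0, each gene on its own scale) of 8 members on the 2 EGFP arrays (grey) and the 2 OGFRL1 arrays (red), with the mean and SD of each pair in black. Acot1, Acot2, Acot3, Acot4 and Vnn1 are higher in OGFRL1 livers, and Acaa1a, Acaa1b and Decr2 lower, without overlap.

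The 4 thioesterase genes lie next to each other on mouse chromosome 12, in the order Acot2, Acot1, Acot4 and Acot3, with 1 non-coding RNA gene between Acot1 and Acot4, followed by Acot5 and Acot6. OGFRL1 lay above EGFP in the brightest probe sets of all 4 neighbours, though only by 0.18 ± 0.17 in Acot4. The 250 bases before an annotated start of each gene are therefore shown (RefSeq, GRCm38.p6, plus strand). Capitals mark matches to the PPAR-alpha type of element searched. The regions are chr12:83987611-83987860 for Acot2, chr12:84009252-84009501 for Acot1, chr12:84038129-84038378 for Acot4 and chr12:84051894-84052143 for Acot3.
Acot2: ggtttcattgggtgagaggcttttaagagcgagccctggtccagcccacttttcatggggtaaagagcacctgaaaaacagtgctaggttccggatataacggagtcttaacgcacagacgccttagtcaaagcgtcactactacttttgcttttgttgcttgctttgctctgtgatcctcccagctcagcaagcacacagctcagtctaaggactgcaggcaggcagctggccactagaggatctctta
Acot1: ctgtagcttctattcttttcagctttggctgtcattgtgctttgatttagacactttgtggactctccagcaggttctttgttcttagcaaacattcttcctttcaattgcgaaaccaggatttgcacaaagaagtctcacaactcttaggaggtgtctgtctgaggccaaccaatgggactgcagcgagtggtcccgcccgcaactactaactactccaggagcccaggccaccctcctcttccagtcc
Acot4: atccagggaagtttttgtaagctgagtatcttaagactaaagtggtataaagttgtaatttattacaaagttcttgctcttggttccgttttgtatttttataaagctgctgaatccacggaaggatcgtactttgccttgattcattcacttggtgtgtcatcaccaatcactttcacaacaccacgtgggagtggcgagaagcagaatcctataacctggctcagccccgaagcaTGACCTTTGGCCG
Acot3: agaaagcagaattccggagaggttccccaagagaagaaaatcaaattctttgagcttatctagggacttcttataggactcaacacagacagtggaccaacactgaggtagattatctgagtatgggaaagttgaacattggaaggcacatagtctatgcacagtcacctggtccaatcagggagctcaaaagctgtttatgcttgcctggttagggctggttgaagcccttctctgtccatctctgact
The element was a direct repeat of AGGTCA with 1 base between the copies, on either strand, with at most 2 mismatches. It was found in 3 of the 30 members that have a promoter window of 300 bases (250 before and 50 after the start), Acot4, Etfa and Slc25a20, or 10.0%, against 3.86% of 32851 windows of all genes. In Acot4 it fills the last 13 bases before the start, on the minus strand. A single exact copy of AGGTCA, which the Acot4 match includes, was in 5 of 30 members (Acadm, Acadvl, Acot3, Acot4 and Cpt1a), or 16.7%, against 16.3% of all windows. In Acot3 it lies after the start and is not in the stretch shown. A member was counted when any of its windows matched (32 windows for the 30 members), while the shares over all genes are per window. The windows of Acot1 and Acot2 hold neither the repeat nor the single copy. A match describes the letters and is no evidence of binding, and members with a match were found both above and below 0.

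Other thioesterases, looked up after the values of these 4 were seen, did not follow the cluster as a whole. Of 12 Acot genes on the array 11 were tested and 0 passed the threshold. Acot6, in the same cluster, had 0.34 ± 0.29 with overlapping groups, and Acot5 was below the minimum on all arrays (0.381 to 2.21). Acot9, a mitochondrial enzyme encoded elsewhere (0.42 ± 0.15), Acot11 (0.55 ± 0.30) and Acot7 (0.08 ± 0.14) had OGFRL1 above EGFP without overlap, against 27% of all genes. The peroxisomal Acot8 (-0.27 ± 0.15), the cytosolic Acot12 (-0.23 ± 0.15) and the mitochondrial Acot13 (-0.34 ± 0.16) had OGFRL1 below EGFP without overlap, against 20.5% of all genes.

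The microsomal route was represented among the members by Cyp4a14, a fatty acid omega-hydroxylase and a classical target of PPAR-alpha. Its signals were 138 and 68.9 in EGFP livers and 104 and 66.7 in OGFRL1 livers, so that the groups overlapped and array 1 was the higher of each pair (-0.23 ± 0.36, adjusted p = 0.819). It was 0.26 without EGFP 1 and -0.71 without EGFP 2, and no direction can be given. The other microsomal genes, from a list of CYP4 enzymes and the fatty aldehyde dehydrogenase, had a median of -0.68, with 7 of 7 tested genes below 0. Cyp4a12a, a hydroxylase with close paralogs, was the one that passed the threshold, with 947 and 1651 in EGFP livers and 57.6 and 105 in OGFRL1 livers (-3.95 ± 0.35, adjusted p = 0.0364). Its adjusted p was 0.0782 without the filter, 0.15 without the intensity trend, 0.139 without OGFRL1 1 and 0.066 without OGFRL1 2, so the call was lost there, with differences from -4.36 to -3.52 over all alternatives. It is known for a higher level in males, and the labels give no sex. Cyp4f14 had 724 ± 154 (SD) and 355 ± 52.2 (n = 2 each, -1.01 ± 0.19, adjusted p = 0.0849), and Cyp4f13 had -0.83 ± 0.15 (adjusted p = 0.0762). In 6 of the 7 tested genes of the list, these 3 among them, both OGFRL1 arrays lay below both EGFP arrays, against 20.5% of all genes.

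Regulators and further PPAR-alpha targets were split. Ppara, which encodes the receptor, had 300 and 606 against 294 and 285 in its brightest probe set (-0.55 ± 0.31, adjusted p = 0.461). Its other 2 probe sets were less spread, with 308 and 432 against 229 and 198 (-0.76 ± 0.20) and with 293 and 382 against 226 and 202 (-0.64 ± 0.18). In all 3 both OGFRL1 arrays lay below both EGFP arrays and EGFP 2 was highest, though EGFP 1 in the brightest set was barely above OGFRL1. The brightest probe set had -1.06 without EGFP 1, where it passed the threshold, and -0.05 without EGFP 2. Ppargc1a, the coactivator PGC-1alpha, had 73.6 and 87.3 against 126 and 59.1 in its brightest probe set (0.11 ± 0.34), with overlapping groups. The other 4 probe sets had 0.47 ± 0.30, 0.53 ± 0.26, 0.51 ± 0.21 and 0.93 ± 0.28, the last with 23.4 and 40.2 against 66.8 and 57.2. All 5 were above 0, and 0 passed the threshold. The brightest had -0.42 without OGFRL1 1 and 0.63 without OGFRL1 2, so its direction rests on OGFRL1 1.

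Vnn1, the pantetheinase that recycles the vitamin part of CoA, had 115 and 107 in EGFP livers and 172 and 258 in OGFRL1 livers (0.91 ± 0.22, adjusted p = 0.129). Its second probe set had 35.6 and 35.7 against 73.1 and 94.1 (1.14 ± 0.21, adjusted p = 0.0846 over all probe sets), so both showed non-overlapping groups. Pdk4, a mitochondrial kinase that inactivates pyruvate dehydrogenase, had 101 and 78.0 against 99.6 and 103 (0.18 ± 0.19). Angptl4, a secreted lipase inhibitor, had 622 and 788 against 741 and 571 (-0.11 ± 0.19). Fgf21, the fasting hormone of liver, had 79.3 and 27.2 against 36.7 and 53.4 (-0.08 ± 0.47). The groups overlapped in these 3 targets, and the spread of Fgf21 leaves its direction unknown.

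**Figure D4:**
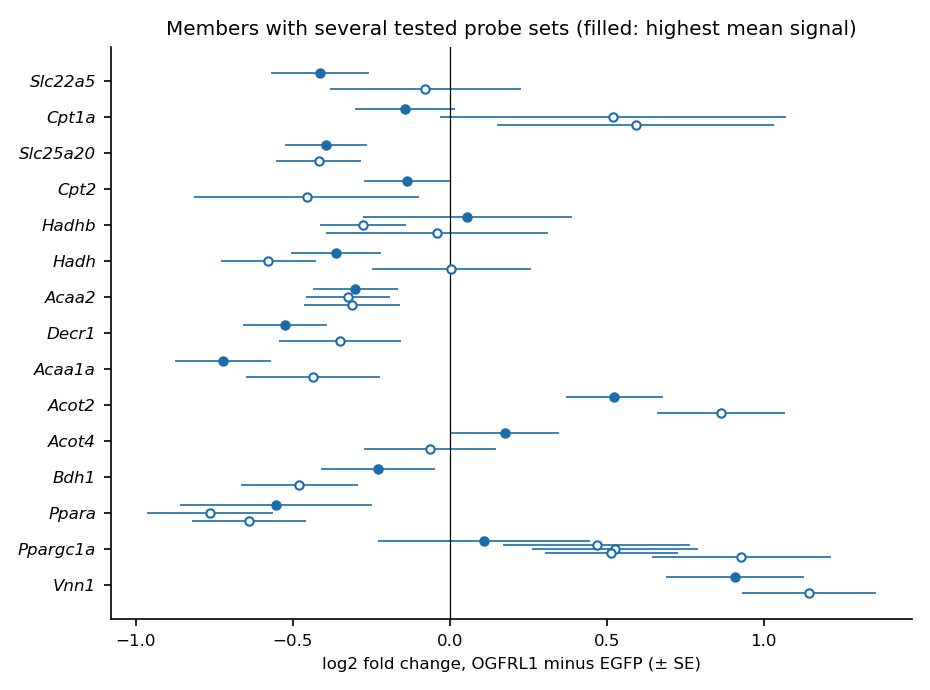
Log2 difference between OGFRL1 and EGFP livers (horizontal axis, ± 1 SE) for every tested probe set of the 15 members with more than 1 (rows). Filled circles are the probe sets of highest mean signal, used for the gene, and open circles the others. All probe sets of a gene share a sign in 11 members, and in Cpt1a, Hadhb, Hadh and Acot4 they differ in sign.

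When all single-symbol probe sets were fitted, 58 of the 62 member probe sets were bright enough to be tested and 0 passed the threshold, against 68 of 20238 probe sets in all. The lowest adjusted p was 0.0727. Hadh, whose dimmest probe set was at 0.005 ± 0.253, had -0.58 ± 0.15 in another.

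Other genes of these and related routes, from lists drawn up by function, were tested beside the members. Of 85 listed, 74 were matched and 73 tested, and the others were not analysed here. Cyp4a12a alone passed the threshold, and not under every setting. The median difference was -0.30, with 53 of 73 below 0, against 44.4% of all genes. At an unadjusted p under 0.05 there were 27 lower and 3 higher, against 6.28% and 9.01% of all genes. Among 14 further peroxisomal genes the median was -0.27. Nudt7, which hydrolyses CoA in peroxisomes, had 3844 and 5431 against 1806 and 2041 (-1.25 ± 0.19, adjusted p = 0.0554), Phyh, the phytanoyl-CoA hydroxylase of branched chains, 5367 and 6038 against 3344 and 3344 (-0.77 ± 0.14, adjusted p = 0.0719), and Ech1, the dienoyl-CoA isomerase, -0.59 ± 0.13. Abcd2, a transporter of very long chains into peroxisomes, was on the other side (0.92 ± 0.25, adjusted p = 0.168), as was Nudt19, another CoA hydrolase (0.29 ± 0.15). Of 12 genes of peroxisome assembly 0 passed the threshold, with a median of -0.29. Pex11a, which acts in peroxisome division, had -0.46 ± 0.13, and Pex16 and Pex6 both -0.42, while Pex10 (0.18 ± 0.25), Pex2 (0.06 ± 0.16) and Pex3 (0.03 ± 0.22) overlapped between the groups.

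Among 15 further mitochondrial genes 13 were below 0, with a median of -0.34. Acad10, Acadsb and Acad8, members of the acyl-CoA dehydrogenase family, had -0.72 ± 0.16, -0.53 ± 0.13 and -0.57 ± 0.15, each without overlap. Acadsb and Acad8 act in the breakdown of branched-chain amino acids. Of 8 genes of fatty acid uptake and activation, the acyl-CoA synthetase Slc27a2 (-0.49 ± 0.13), the acyl-CoA-binding protein Dbi (-0.39 ± 0.14) and Fabp1, the liver fatty acid-binding protein (-0.39 ± 0.16), had OGFRL1 below EGFP without overlap, and the groups overlapped in the fatty acid receptor Cd36 (0.05 ± 0.13) and the acyl-CoA synthetase Acsl4 (0.28 ± 0.21). The median of that list was -0.16 and turned to 0.07 under quantile normalization. Of 4 genes of ketone body use and transport, Slc16a1, a carrier of lactate and ketone bodies, had 958 and 853 against 1419 and 1204 (0.53 ± 0.15, adjusted p = 0.171). Oxct1, the enzyme of ketone body use that hepatocytes normally lack, had 144 and 97.2 against 140 and 240 (0.61 ± 0.30), with overlap. Slc16a6 (0.43 ± 0.32) also overlapped, and Bdh2 had -0.48 ± 0.24. Of 13 further regulators, Creb3l3, a partner of PPAR-alpha (-0.41 ± 0.14), the mitochondrial deacetylase Sirt3 (-0.47 ± 0.16) and Rxrb (-0.34 ± 0.17) had OGFRL1 below EGFP without overlap, and the lipid droplet protein Cidec (0.68 ± 0.30) had it above. Cre scaling turned the medians of the mitochondrial, peroxisomal and assembly lists above 0 (0.08, 0.16 and 0.14), and that of the microsomal list was still below 0 (-0.25).

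The brightest genes were mostly below 0, and many members are bright. Above a mean signal of 5000, 128 of 134 genes were below 0 (median -0.43). The 2 members there, Hadh (-0.36) and Acaa1b (-0.90), lay on opposite sides of that value, with a median of -0.63. Between 1000 and 5000 the median was -0.13 over 978 genes and -0.24 over 16 members, of which 15 were below 0. Between 100 and 1000 it was 0.04 over 5203 genes and -0.12 over 12 members, and under 100 it was 0.09 over 5627 genes and 0.11 over 5 members. The median of the members thus lay below that of all genes in the upper 3 ranges, in the brightest of them through Acaa1b alone. The part that signal played in their differences was not tested. The 14 BioB, BioC and BioD probe sets of the spike-in controls were lower by 0.32 on average, with 0 of 14 above 0.

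**Figure D5:**
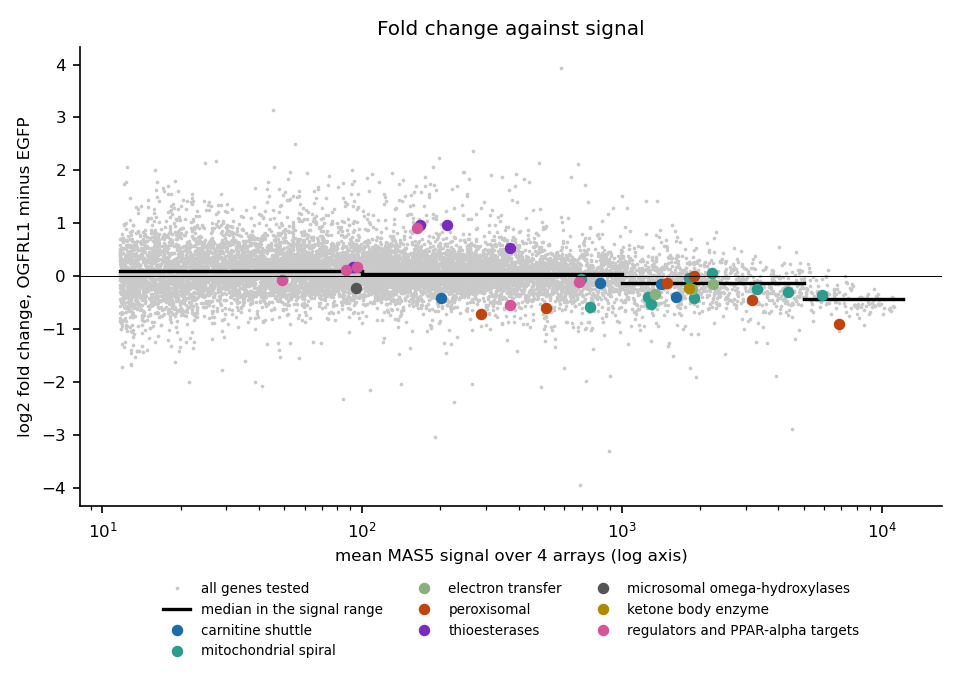
Log2 difference between OGFRL1 and EGFP livers (vertical axis) against the mean MAS5 signal over the 4 arrays (horizontal log axis). Grey points are all 11942 tested genes, black segments the median in each of 4 signal ranges, and coloured points the members by step. The black segments go down from 0.09 in the dimmest to -0.43 in the brightest range. Acot1, Acot2, Acot3 and Vnn1 lie above the segments, and Acaa1a, Acaa1b, Decr2 and Acads below.

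Markers of several cell types also differed between the arrays. The summed signal of the 4 hepatocyte markers was 37821 and 27372 in EGFP livers and 20360 and 22021 in OGFRL1 livers. All 4 were lower (median -0.55, which is -0.18 under quantile normalization and -0.12 with Cre scaling). The summed signal of 3 markers of cycling cells was 509 and 304 against 1273 and 1520, with 3 of 3 above 0. Birc5 passed the threshold, though not with quantile normalization, without the filter or the intensity trend, or without either OGFRL1 array (adjusted p from 0.0524 to 0.231). That of 4 stellate cell and myofibroblast markers was 327 and 377 against 642 and 780, with 3 of 4 higher, none of them past the threshold. The macrophage, endothelial and cholangiocyte sums overlapped between the groups, and the 2 adipocyte markers were near 0 throughout. The part of cell composition in the members' differences was not tested.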

How the data were processed

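Per the labels, biotinylated cRNA made from 100 ng of total RNA was hybridised to 4 single-colour Affymetrix arrays. The authors deposited signal intensities, 1 per probe set on a linear scale. MAS5 is the tool named, without a version, per the submitters' processing notes, and detection calls were not used here. The intensities, with the lowest and highest 2% of values left out, had a mean of 100.001 on each array, so arrays were scaled as a whole and brightness-dependent differences can remain.

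Of 45101 probe sets, 34945 had 1 gene symbol in the platform annotation, 932 had several and 9160 none, and 64 were controls. The first kind alone was used. Signals were log2-transformed after adding the 25th percentile (3.51). The brightest probe set by mean signal stood for its gene, and genes with a mean of 11.6 (the median of all probe sets' means) or more were tested, which left 11942 genes and all 35 members. OGFRL1 and EGFP were compared with limma 3.58.1 in R 4.3.3 (lmFit, eBayes with an intensity trend, 2-sided, 2 residual and 4.48 prior degrees of freedom), with Benjamini-Hochberg adjustment over all genes and a threshold of 0.05. The pipeline was tested on simulated data. The members, steps and lists were chosen with earlier results of these data known, so no list was tested as a set. All members are named, with full statistics for the 12 of largest moderated t and the extremes of each step; of the other lists up to 3 genes in each direction are named. Promoter windows came from a RefSeq table (GRCm38.p6). Protein sequences were not used here. Python 3.11.15 with pandas 2.3.3 (promoters) and matplotlib 3.10.9 (plots) was also used. Alternatives were quantile normalization, scaling to the Cre controls, 4 times the pseudocount, no filter, a minimum 4 times higher, averaging a gene's probe sets, eBayes without trend, blocking on replicate number and leaving out each array. Precision is limited by having 4 arrays.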

Additional observations from a re-analysis of the deposited data

How the results depend on the processing

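The number of genes past the threshold, 61 of 11942 (43 higher and 18 lower), depended on the processing. It was 4 with quantile normalization (1 higher and 3 lower), 1303 with scaling to the Cre controls (1277 higher and 26 lower), 94 with 4 times the pseudocount, 21 with the stricter filter and 13 with the mean over probe sets. Without a filter and without an intensity trend limma called 0 (unadjusted p under 0.05 in 2179 and 1654 genes). Leaving out 1 array gave 0 to 873 genes and 0 to 5 members. Scaling to the Cre controls called 4 members (Acot1, Acot2, Acot3 and Vnn1, all higher). Quantile normalization, the other pseudocount, filters, probe set rule and trend setting called 0.

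The median over the members was -0.10 with quantile normalization, 0.20 with Cre scaling and -0.30 to -0.18 with an array left out. Quantile normalization gave -0.21 for the carnitine shuttle, -0.092 for the mitochondrial spiral, -0.15 for electron transfer, 0.70 for thioesterases and -0.037 for regulators. Cre scaling gave 0.16, 0.094 and 0.18 for the first 3 of these, -0.10 for peroxisomal enzymes, 1.17 for thioesterases, 0.20 for Bdh1 and 0.44 for regulators. The mean over probe sets gave 0.83 for thioesterases and 0.11 for regulators. With an array left out the ranges were -0.33 to -0.23 for the shuttle, -0.43 to -0.28 for the mitochondrial spiral, -0.30 to -0.23 for electron transfer, -0.73 to -0.32 for peroxisomal enzymes, 0.63 to 0.75 for thioesterases, -0.71 to 0.26 for Cyp4a14, -0.46 to -0.002 for Bdh1 and -0.059 to 0.25 for regulators. Cre scaling shifts all genes by its construction. The other causes were not tested.

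The labels give both groups replicates 1 and 2. Same-numbered arrays did not deviate together (r = -0.276 across genes). With the replicate number as a block there were 59 genes and 0 members past the threshold. With the numbers crossed, an alternative chosen after seeing the data, there were 934 genes and 9 members.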
